A study of Mus musculus with 35 samples.

Results

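The BCL-2 family apoptosis regulators examined here are 10 genes, Bcl2, Bcl2l1, Mcl1, Bax, Bak1, Bcl2l11, Bbc3, Hrk, Pmaip1 and Bid, found by symbol among the 32544 genes of the count tables, where all 10 were present. The tissue was bulk hippocampus of adult male C57BL/6JOlaHsd mice, 7 to 9 weeks old by the study's methods. KA mice had received kainic acid, a glutamate receptor agonist, into the amygdala through an implanted cannula (IAKA), which triggers status epilepticus and is followed by spontaneous seizures, and PBS mice had received vehicle by the same route. The study's methods describe lorazepam given after the KA injection to limit seizures. Mice were sampled at 24 hours (acute) or 2 weeks (chronic).

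Each mouse gave an input library (total RNA), an m6A library (RNA pulled down with an m6A antibody), or both. The m6A libraries came from 5 KA and 3 PBS mice at 24 hours and from 6 KA and 5 PBS mice at 2 weeks. The input libraries came from 4 KA and 3 PBS mice at 24 hours and from 6 KA and 3 PBS mice at 2 weeks, and 13 of these 16 held at least 100000 counts. The remaining 3, KA mouse 97 and PBS mice 71 and 73, all at 24 hours, held 3171 to 34486 counts and were left out, so that 3 KA mice and 1 PBS mouse stood against each other in input at 24 hours. The labels name polyA RNA as the molecule of the m6A libraries and total RNA as that of the inputs, so a difference between the assays may also reflect polyA content, which cannot be told apart from m6A here. In bulk tissue, fewer cells of a type and less RNA per cell cannot be told apart either.

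The BCL-2 family controls whether the outer mitochondrial membrane is opened during apoptosis. Bax and Bak1 encode the effectors that form the pores, Bcl2, Bcl2l1 (BCL-XL) and Mcl1 encode antiapoptotic guardians that hold the effectors and their activators in check, and Bcl2l11 (BIM), Bbc3 (PUMA), Hrk (Harakiri), Pmaip1 (NOXA) and Bid encode BH3-only proteins that inhibit the guardians or activate the effectors. Neurons rely on this balance after prolonged seizures, and Hrk is best known from neurons.

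What the members share is the BH3 domain, the short helix through which guardians, effectors and BH3-only proteins bind each other. Its core was located in the translations of the GENCODE vM39 canonical transcripts as leucine, any 3 residues, glycine or alanine, aspartate and then aspartate, glutamate, glycine or serine. Pmaip1 was left out by name after the search, so whether it matched is not shown. The other 9 of 10 members each held exactly 1 match, against at least 1 match in 7.9% of 21770 coding transcripts, with none left out. The pattern describes the BH3 core itself, so this contrast was largely fixed in advance. Pmaip1, the member left out, also encodes a BH3-only protein. The coding bases are shown 5′ to 3′ for these 9, guardians first, effectors next and BH3-only genes last, with capitals on the leucine codon and on the codons of the small residue and aspartate.
Bcl2: accCTCcgccgggctGGGGATgac
Bcl2l1: gcgCTGagagaggcaGGCGATgag
Mcl1: accCTGcggcgcgtgGGCGACggc
Bax: tgtCTCcggcgaattGGAGATgaa
Bak1: cagCTTgctctcatcGGAGATgat
Bcl2l11: gagCTGcggcggatcGGAGACgag
Bbc3: cagCTGcggcggatgGCGGACgac
Hrk: cggCTGcaggcgctgGGCGACgag
Bid: catCTCgcccaaataGGCGATgag

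Bbc3 alone among the 9 carried alanine (GCG) at the small-residue codon. The encoded proteins ran from 92 residues for Hrk to 331 for Mcl1. In RefSeq coordinates of GRCm38.p6 (mm10 is the build in the submitters' processing notes), Mcl1 lies at chr3:95656944-95663179, Hrk at chr5:118169764-118189478, Bcl2l1 at chr2:152758732-152833803, Bcl2l11 at chr2:128126038-128162547, Bbc3 at chr7:16308398-16318334 and Bax at chr7:45461695-45466903.

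Total counts of the 32 libraries used ran from 1652933 to 34564536, and these totals set the precision of the low members. Libraries differed in ways that the groups did not explain. The m6A columns begin with 3, 4 or 5 (library sets). At 24 hours KA mice lay in sets 3 and 4 and PBS mice in sets 4 and 5, and at 2 weeks KA mice lay in sets 3 and 5 and PBS mice in sets 4 and 5. With library set as a block in a fit, the m6A difference between KA and PBS mice rests on sets holding both groups. These were set 4 at 24 hours and set 5 at 2 weeks. Both libraries of KA mouse 8 at 24 hours held 28496 and 28574 detected genes and 16.4% and 17.4% mitochondrial counts, and the m6A library of KA mouse 6 at 2 weeks held 27003 genes and 17.5% mitochondrial counts. The median library had 4.31% mitochondrial counts. Single genes took large shares. In input at 24 hours Lars2 took 23.1% and 21.8% of counts in KA mice 67 and 98 and 4.29% in PBS mouse 1. The top gene of KA mouse 8 took 7.49% there. In input at 2 weeks the top gene, Lars2 or Tmem38b, took 14.4% to 25.2% in KA and 11.1% to 20.9% in PBS libraries. A large share for 1 gene lowers the unscaled level of all other genes in that library. The 8 hippocampal neuron markers, among them Prox1 and Slc17a7, were all detected in every group.

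Bcl2l1 and Mcl1, both guardians, had the highest mean levels, and the guardian Bcl2 ranked below Bax and Hrk. On the scale of counts per 1000000 (CPM) per kilobase of the canonical transcript, Bcl2l1 had the highest level in PBS input libraries at 2 weeks at 11.6 ± 0.32 (SD, n = 3), followed by Mcl1 at 9.46 ± 1.34, Bax at 7.15 ± 1.28, Hrk at 5.45 ± 0.10 and Bcl2 at 4.42 ± 0.52. Bid (1.75 ± 0.24), Bak1 (1.54 ± 0.49), Bcl2l11 (1.10 ± 0.22), Pmaip1 (0.89 ± 0.57) and Bbc3 (0.21 ± 0.05) were lower. The ranges of the 3 libraries overlapped between the neighbours Mcl1 and Bax, Bid and Bak1, Bak1 and Bcl2l11, and Bcl2l11 and Pmaip1, and did not overlap between the other neighbours. In KA input libraries at 2 weeks the means of Bcl2l1 (13.1 ± 0.56, n = 6) and Mcl1 (12.97 ± 2.44) were nearly level. Hrk, a BH3-only gene, stood above Bcl2 in mean level per length in both groups, with overlapping ranges in KA mice.

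**Figure D1:**
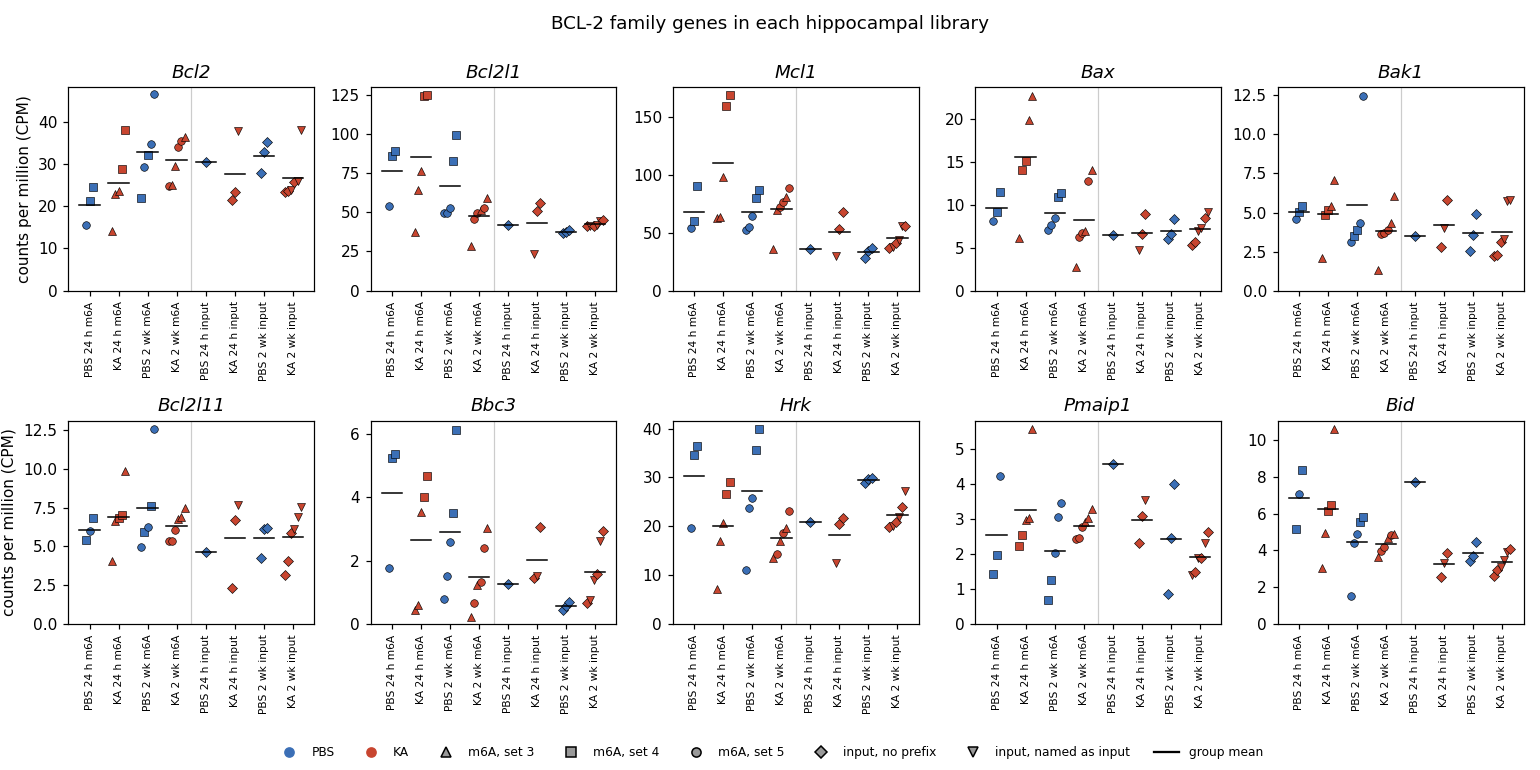
CPM of each member in each of the 32 libraries with at least 100000 counts; colours give the treatment, symbols the library set and lines the group means. Mcl1 reached 160 and 169 CPM in the set 4 m6A libraries of KA mice at 24 hours, and all 6 KA input libraries at 2 weeks lay below the PBS libraries for Hrk.

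None of the 10 members passed an adjusted p of 0.05 between KA and PBS mice, in either assay at either time, in edgeR's quasi-likelihood test. Few genes did at all. In m6A libraries 1 of 16470 genes tested passed at 24 hours (0.00607%) and 0 of 16157 at 2 weeks (0%), and in input 0 of 17644 passed at 24 hours (0%) and at 2 weeks (0%). The gene that passed was Tm4sf1, a membrane protein gene with a log2 fold change of 3.42, named after its value was seen. At an unadjusted p under 0.05 stood 0 members in m6A libraries at 24 hours (5.31% of all genes) and 0 at 2 weeks (5.01%), 2 members in input at 24 hours (9.23%) and 3 in input at 2 weeks (8.16%).

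The other tools called more genes and almost no members. DESeq2 called 156, 15, 201 and 30 genes in these comparisons (m6A at 24 hours and 2 weeks, then input) and 0 members in each. In input at 24 hours Bbc3 had no adjusted p in DESeq2. Voom with quality weights called 1120, 2, 1076 and 112 genes and 1 member, Mcl1 in input at 24 hours. Leaving out KA mouse 8 moved the edgeR count from 1 to 45 genes in m6A and from 0 to 180 in input at 24 hours, again with 0 members. The values below are therefore given as levels and fitted differences with their errors, none of which passed edgeR's adjusted threshold with all libraries.

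**Figure D2:**
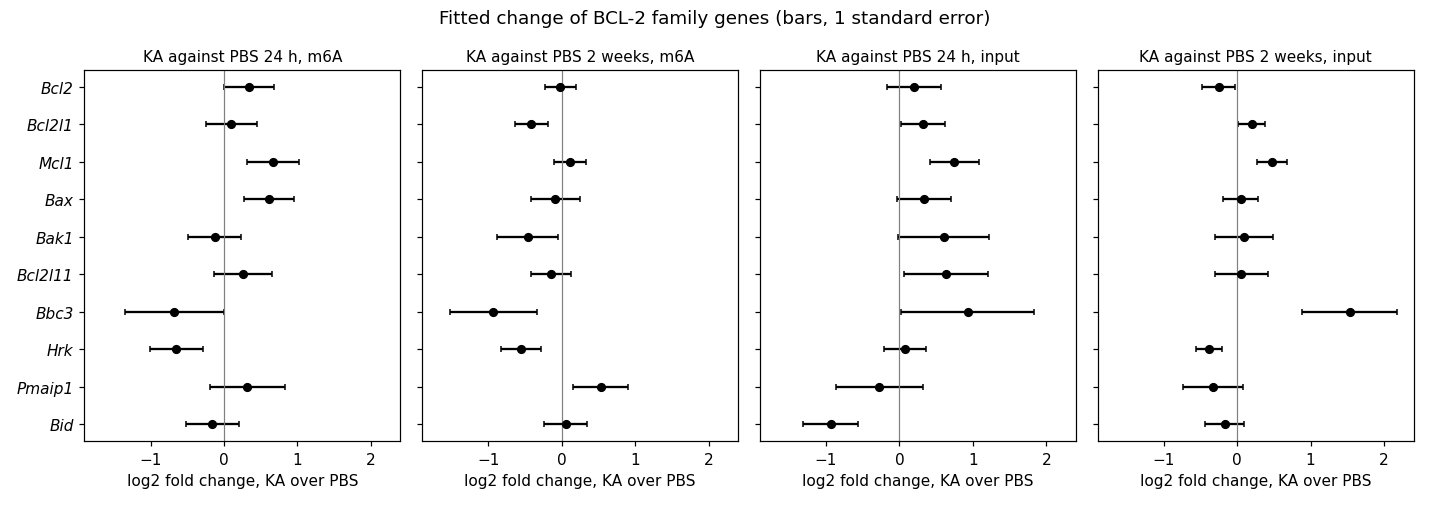
Fitted log2 fold change of KA over PBS for each member (edgeR; bars, 1 standard error) at 24 hours and 2 weeks in m6A and input libraries. Mcl1 lies above 0 in the 4 panels (0.66, 0.12, 0.75 and 0.47), and no member passed an adjusted p of 0.05.

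Mcl1, the short-lived guardian, was the member with the smallest p in m6A libraries at 24 hours. Its KA libraries held 169, 160, 98.5, 63.7 and 62.9 CPM and its PBS libraries 90.4, 60.0 and 54.1 CPM. The ranges overlapped, and the 2 highest KA libraries were those of set 4. KA over PBS came to 0.66 ± 0.35 on the log2 scale (SE; adjusted p = 0.983 by edgeR's quasi-likelihood test). Within set 4, where 2 KA libraries faced PBS libraries at 90.4 and 60.0 CPM, it was 1.02 ± 0.18 with an adjusted p of 0.0416 in edgeR. With all 8 libraries in the fit and library set as a block it was 1.02 ± 0.27, with an adjusted p of 0.670. The blocked difference rests on the libraries of set 4 again, the only set with both groups at this time. The restriction to 1 set was chosen after seeing the data. Over all alternatives and left-out libraries, the value ran from 0.46 to 1.02 at this time.

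In input at 24 hours, Mcl1 stood at 68.0, 53.2 and 29.9 CPM in KA mice and at 36.3 CPM in the only deep PBS library (95% exact binomial interval 33.1 to 39.8, covering counting error only). KA mouse 8 was the library below it. The fitted log2 difference was 0.75 ± 0.33 (edgeR's adjusted p = 0.521) and 0.96 ± 0.27 without KA mouse 8 (adjusted p = 0.0822), and voom with quality weights gave 0.92 with an adjusted p of 0.0341.

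At 2 weeks Mcl1 input levels were 27.9, 34.1 and 37.1 CPM in PBS mice, and in 6 KA mice they ran from 36.9 over a median of 42.6 to 55.9 CPM. Only the lowest KA library lay under the highest PBS library in this unscaled CPM. After TMM scaling the lowest KA library (mouse 21, 39.7 CPM) lay above the highest PBS library (mouse 2, 37.5 CPM). KA over PBS was 0.47 ± 0.21 in log2 (edgeR's adjusted p = 0.589). In m6A libraries at 2 weeks KA mice had 36.3 to 88.8 CPM (median 74.4) and PBS mice 87.4, 79.7, 64.6, 54.9 and 52.9 CPM, which overlapped, with a log2 fold change of 0.12 ± 0.21. With library set as a block it was 0.52 ± 0.25, still with an adjusted p of 1.00. The sign for Mcl1 was positive in each setting run for these 4 comparisons. In m6A libraries the values with no block lay within 2 SE of 0 at both times in the fits given first here, and those with library set as a block lay more than 2 SE above 0, without passing the adjusted threshold.

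Bcl2l1 encodes BCL-XL, the guardian best known from adult neurons. In m6A libraries at 24 hours it stood at 125, 124, 76.8, 64.1 and 37.8 CPM in KA mice and at 89.4, 85.9 and 54.3 CPM in PBS mice. The groups overlapped fully (log2 fold change 0.10 ± 0.35). At 2 weeks PBS mice had 99.4, 82.9, 52.5, 49.5 and 49.4 CPM and KA mice 28.6 to 59.0 (median 50.7), and the log2 fold change of -0.41 ± 0.23 turned to 0.03 ± 0.23 with library set as a block. The 2 PBS libraries of set 4 were the high ones. Input levels at 2 weeks were 36.8, 37.6 and 38.9 CPM in PBS mice and 41.2 to 45.4 CPM in KA mice. These ranges did not overlap, but the fitted difference was 0.19 ± 0.19 (adjusted p = 0.851, edgeR).

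Bcl2, the founding guardian, had input levels of 28.0, 32.9 and 35.4 CPM in PBS mice and 23.4 to 38.1 CPM (median 24.9) in KA mice at 2 weeks. Apart from KA mouse 7 at 38.1 CPM, the KA libraries lay at or under 26.0 CPM, and KA over PBS was -0.25 ± 0.23 (edgeR's adjusted p = 0.833). In m6A libraries it was 0.34 ± 0.33 at 24 hours and -0.02 ± 0.21 at 2 weeks. Input at 24 hours gave 0.20 ± 0.36, and -0.22 ± 0.27 without KA mouse 8, whose 37.9 CPM was the highest of the 3 KA libraries.

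Bax, the effector that moves to mitochondria when activated, had m6A levels at 24 hours of 22.7, 19.96, 15.1, 14.1 and 6.08 CPM in KA mice and 11.5, 9.23 and 8.12 CPM in PBS mice. All KA libraries but that of mouse 8 lay above all PBS libraries. This gave 0.61 ± 0.34 in log2 (edgeR's adjusted p = 0.983) and 0.77 ± 0.28 without mouse 8 (adjusted p = 0.440). The 2 highest values came from the shallowest m6A libraries of the series, with 45 and 33 Bax counts. In input Bax ran from 4.74 to 8.96 CPM at 24 hours, with PBS mouse 1 at 6.46, and from 5.37 to 9.20 CPM at 2 weeks in both groups together. The fitted differences there were 0.33 ± 0.37 and 0.05 ± 0.24.

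Bak1, the effector resident in the mitochondrial membrane, stayed between 1.29 and 7.07 CPM in all but 1 of the 32 libraries, the exception being PBS mouse 4 at 2 weeks in m6A with 12.5 CPM. The log2 fold changes were -0.13 ± 0.36 and -0.46 ± 0.42 in m6A libraries and 0.60 ± 0.62 and 0.09 ± 0.40 in input, at 24 hours and 2 weeks. Without PBS mouse 4, the value in m6A libraries at 2 weeks was 0.08.

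Hrk, the neuronal BH3-only gene, was the member with the smallest p in m6A libraries at 2 weeks. It was also the one whose input groups separated downward in CPM. Input levels at 2 weeks were 28.9, 29.7 and 29.9 CPM in PBS mice, and in KA mice they ran from 19.8 over a median of 21.4 to 27.2 CPM. The highest KA library lay below the lowest PBS library. After TMM scaling the ranges overlapped, with KA mouse 9 at 30.9 CPM and PBS mouse 2 at 29.2 CPM. On the log2 scale KA over PBS was -0.38 ± 0.17 (edgeR's adjusted p = 0.601), a level 0.77 times that of PBS mice. Within the input set without a prefix, which holds the 3 PBS mice and 3 KA mice, it was -0.42 ± 0.17 (adjusted p = 0.245). In the fit of all 13 input libraries with library set as a block it was -0.33 ± 0.20 (unadjusted p = 0.131, adjusted p = 0.413, edgeR). Hrk and Bcl2l1 were thus 2 members, 1 lower and 1 higher, whose input groups did not overlap in unscaled CPM at 2 weeks. There 5.62% of all genes tested had groups that did not overlap. After TMM scaling Bcl2l1 (44.2 to 48.9 CPM in KA, 39.3 to 42.2 in PBS mice) and Mcl1 (39.7 to 62.5 against 32.1 to 37.5 CPM) were apart, both higher in KA mice. The share of all genes apart after scaling was not computed. In unscaled m6A CPM 0 members had groups apart, at 24 hours (3.71% of all genes) and at 2 weeks (0.594%).

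Input Hrk at 24 hours was 21.8, 20.4 and 12.4 CPM in KA mice and 20.9 CPM in PBS mouse 1, so that the separation seen at 2 weeks was not there. The log2 fold change at 24 hours was 0.08 ± 0.28, and the change of the KA effect between the times was 0.46 ± 0.33 (adjusted p = 1.00, edgeR). In m6A libraries at 24 hours KA mice had 29.1, 26.6, 20.7, 16.9 and 7.20 CPM and PBS mice 36.4, 34.6 and 19.7 CPM, a difference of -0.65 ± 0.36 (adjusted p = 0.983). At 2 weeks the difference was -0.55 ± 0.27 (adjusted p = 0.875), with PBS mice at 40.0, 35.6, 25.7, 23.8 and 11.1 CPM and KA mice between 13.4 and 23.1 CPM. With library set as a block it shrank to -0.06 ± 0.31, and the 2 PBS libraries of set 4 held the highest values.

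Bbc3, the BH3-only gene PUMA and a classical p53 target, had the lowest level per length in PBS input libraries at 2 weeks and rested on few counts there. PBS input libraries at 2 weeks held 2, 2 and 4 counts (0.44, 0.57 and 0.70 CPM), and KA libraries 2 to 21 counts (0.65 to 2.93 CPM). The fitted log2 difference was 1.53 ± 0.65 (edgeR's adjusted p = 0.589), and 5 of 6 KA libraries lay above the highest PBS library. In m6A libraries the differences ran the other way, -0.68 ± 0.68 at 24 hours and -0.93 ± 0.59 at 2 weeks, and the latter was -0.05 ± 0.80 with library set as a block. PBS mice at 2 weeks had 6.12 and 3.51 CPM in set 4 and 2.58, 1.53 and 0.79 CPM in set 5. Input at 24 hours gave 0.93 ± 0.91, from 16 counts in PBS mouse 1.

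Bcl2l11, which encodes BIM and is induced in neurons after trophic factor loss, lay between 2.30 and 12.6 CPM in all 32 libraries. The fitted differences were 0.26 ± 0.39 and -0.15 ± 0.27 in m6A libraries and 0.64 ± 0.57 and 0.06 ± 0.36 in input. Pmaip1, which encodes NOXA, a partner of MCL1, gave 0.32 ± 0.51 and 0.53 ± 0.38 in m6A libraries and -0.27 ± 0.59 and -0.33 ± 0.41 in input. In input at 24 hours, the 3 KA libraries at 2.30 to 3.53 CPM lay below PBS mouse 1 at 4.57 CPM, whose exact interval began at 3.47.

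Bid, which links death receptors to mitochondria, had the smallest p of the members in input at 24 hours. KA mice had 3.84, 3.33 and 2.55 CPM, from 14 to 33 counts, and PBS mouse 1 had 7.72 CPM (exact interval 6.27 to 9.41). KA over PBS in log2 was -0.94 ± 0.38 (edgeR's adjusted p = 0.487), and with 1 control library it has no check among PBS mice of that time. PBS input libraries at 2 weeks stood at 3.42, 3.67 and 4.44 CPM, near the KA libraries at either time. The m6A differences were -0.16 ± 0.36 and 0.05 ± 0.30.

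The KA effect did not pass a test of change between 24 hours and 2 weeks for any member. In m6A libraries 1 of 17440 genes passed (0.00573%), again Tm4sf1, and 0 members, with 0 members at an unadjusted p under 0.05 (2.45% of all genes). In input 0 of 17644 genes passed (0%), and 0 members stood under an unadjusted p of 0.05 (3.08% of all genes) in edgeR. DESeq2 called 5 and 4 genes and voom 62 and 0, with 0 members each. The median change over the members was 0.35 in m6A libraries and 0.28 in input, beside 0.11 and 0.17 over all genes tested.

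Library set moved many members among PBS mice alone. The 4 PBS m6A libraries of set 4 and the 4 of set 5 had ranges that did not overlap for 5 of 10 members, beside 37.9% of 17440 genes. Bcl2l1 stood at 82.9 to 99.4 CPM in set 4 and at 49.4 to 54.3 CPM in set 5. Hrk stood at 34.6 to 40.0 CPM against 11.1 to 25.7 CPM, Bbc3 at 3.51 to 6.12 against 0.79 to 2.58 CPM and Bax at 9.23 to 11.5 against 7.06 to 8.43 CPM. Pmaip1 ran the other way, with 0.68 to 1.97 CPM in set 4 and 2.01 to 4.21 CPM in set 5. Mcl1 overlapped, at 60.0 to 90.4 and 52.9 to 64.6 CPM. Each of these sets held PBS mice of both times, so the split crosses the time points.

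A ratio of counts between members of the same library does not depend on how libraries are scaled to each other, although it still depends on the library set. All 45 pairs of members were compared, and no test was applied. In m6A libraries at 24 hours 4 pairs had ratios that did not overlap between KA and PBS mice (5.39% of all gene pairs tested), at 2 weeks 1 pair (0.649%) and in input at 2 weeks 7 pairs (5.58%). Mcl1 over Hrk and Bcl2l1 over Hrk, each a guardian over a BH3-only gene, were among them at 24 hours in m6A and at 2 weeks in input. The other pairs in m6A at 24 hours were Bax over Hrk and Bax over Bak1, both higher in KA mice. All but Bax over Bak1 held Hrk there, and pairs that share a gene are not separate observations. In input at 2 weeks Bbc3 over Hrk, Bbc3 over Bid and Mcl1 over Bid were also higher in KA mice. Bak1 over Bbc3 and Bcl2 over Mcl1 were lower there.

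In m6A libraries at 24 hours Mcl1 over Hrk was 3.71 to 8.86 in KA mice (median 5.49) and 1.74 to 2.75 in PBS mice. Within set 4 the ratios were 5.49 and 6.35 in KA mice and 2.49 and 1.74 in PBS mice. At 2 weeks in input it was 1.61 to 2.78 in KA mice (median 1.92) and 0.93 to 1.28 in PBS mice, while in m6A libraries at 2 weeks the ranges of 2.71 to 6.23 and 1.99 to 4.95 overlapped. Input at 24 hours gave 2.41, 2.45 and 3.34 in KA mice and 1.74 in PBS mouse 1. Bcl2l1 over Hrk was 3.71 to 5.25 in KA and 2.36 to 2.76 in PBS m6A libraries at 24 hours, and 1.55 to 2.30 in KA and 1.23 to 1.35 in PBS input libraries at 2 weeks. In m6A libraries at 2 weeks its ranges of 1.99 to 3.48 and 2.04 to 4.47 overlapped.

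The single pair apart in m6A libraries at 2 weeks was Mcl1 and Bcl2l1, both guardians. Mcl1 over Bcl2l1 was 1.27 to 1.79 in KA mice (median 1.41) and 0.80 to 1.23 in PBS mice. At 24 hours the ratio was 0.98 to 1.69 in KA and 0.67 to 1.05 in PBS mice, with 1 KA library inside the PBS range. Bax over Bcl2, an effector over a guardian, overlapped in each comparison, and ran from 0.26 to 1.61 in KA and 0.44 to 0.52 in PBS mice in m6A libraries at 24 hours, where the highest value rested on 45 Bax and 28 Bcl2 counts.

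**Figure D3:**
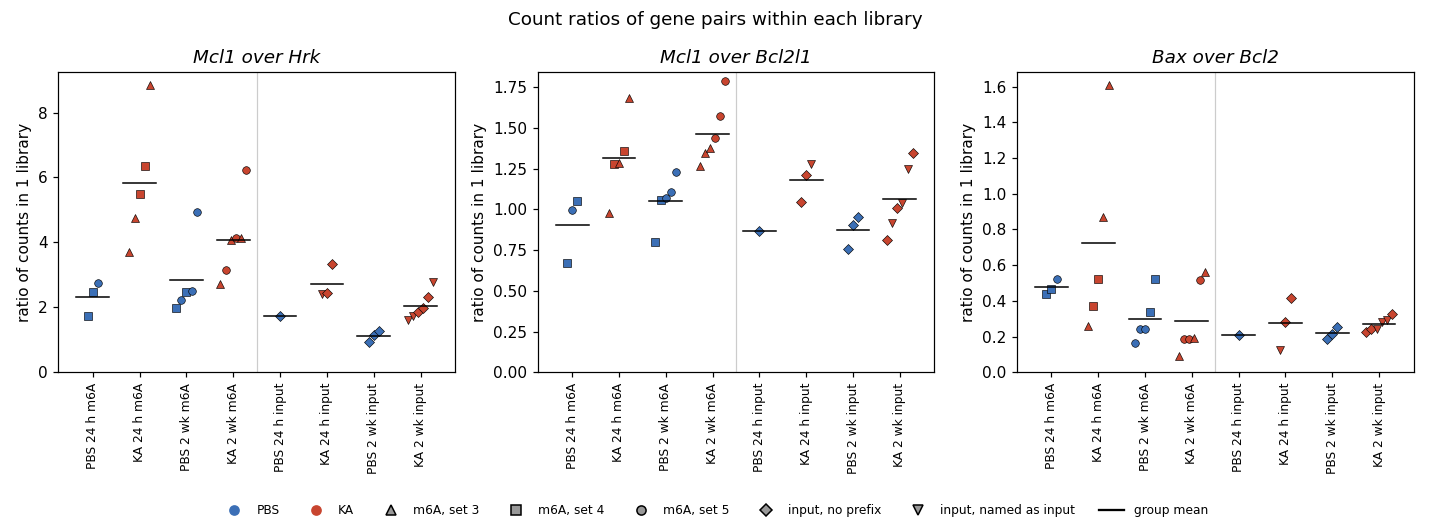
Ratio of counts of Mcl1 to Hrk, Mcl1 to Bcl2l1 and Bax to Bcl2 in each library, with colours for the treatment, symbols for the library set and lines for group means. Mcl1 over Hrk lay at or above 3.71 in KA and at or below 2.75 in PBS m6A libraries at 24 hours.

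The m6A library was compared with the input library of the same animal in the 13 mice that had both, after TMM scaling of the 32 libraries together. Mcl1 was higher in the m6A library in 11 of 13 mice, with a median log2 ratio of 0.48 and a range from -0.07 to 0.97. Hrk was lower in the m6A library in 12 of 13 mice, with a median of -0.56 and a range from -1.68 to 0.09. Of all 22654 genes tested, 20.2% had the same direction in at least 11 of 13 mice and 9.87% in at least 12, so these 2 members were not rare among genes. The other 8 members had a common direction in 7 to 10 mice, and Bbc3 spanned the widest range, from -3.68 to 1.63, from as few as 1 m6A count and 2 input counts.

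At 2 weeks 0 members passed an adjusted p of 0.05 in m6A over input among PBS mice (0.539% of genes did) or among KA mice (1.03%) in edgeR. At an unadjusted p under 0.05 stood 2 members in PBS mice, Mcl1 and Bbc3 (11.7% of all genes), and 0 in KA mice (10.1%). Mcl1 had a log2 ratio of 0.87 ± 0.33 in PBS mice (adjusted p = 0.292) and of 0.49 ± 0.26 in KA mice (adjusted p = 0.542). Voom with quality weights called Mcl1 in both groups (0.70, adjusted p = 0.0184; 0.57, adjusted p = 0.0153) and Hrk in KA mice (-0.63, adjusted p = 0.00796), among 4932 and 6808 genes, and DESeq2 called 573 and 644 genes and 0 members.

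With the mouse as a block, the fit closest to the paired design, Hrk stood at -0.85 ± 0.23 in PBS mice (adjusted p = 0.0637, edgeR) and at -0.53 ± 0.16 in KA mice (adjusted p = 0.0501), and Mcl1 at 0.57 ± 0.21 (adjusted p = 0.175) and 0.44 ± 0.15 (adjusted p = 0.0789). None passed. In this fit 405 genes passed in PBS mice and 1471 in KA mice, against 122 and 234 without the block.

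The KA effect on m6A over input at 2 weeks was past an adjusted p of 0.05 for 0 of 22654 genes (0%) and past an unadjusted p for 1 member, Bbc3 (2.33% of all genes), in edgeR. DESeq2 called 8 and voom 1 gene, with 0 members each. Bbc3 had -2.50 ± 1.06 (adjusted p = 1.00), from the PBS input libraries with 2 to 4 counts described above, and -1.84 ± 0.97 with the mouse as a block.

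**Figure D4:**
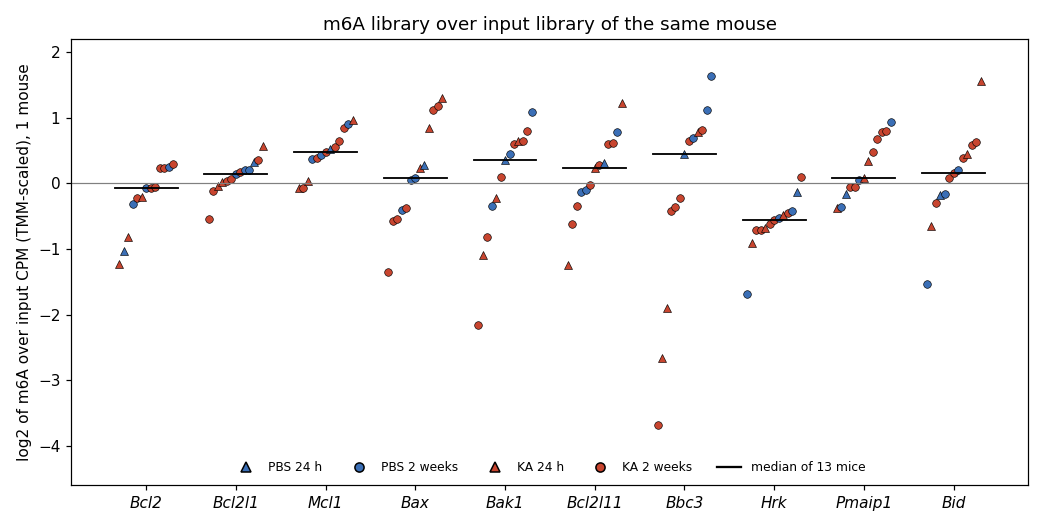
Log2 ratio of the m6A library over the input library of the same mouse for each member in 13 mice (CPM after TMM scaling; lines, medians). Mcl1 lies at or above -0.07 in all mice, and Hrk lies below 0 in 12 of 13.

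GGACU is a frequent sequence around m6A in mammalian transcripts. Counted on the sense strand of the canonical transcripts, Bax held 3 copies (3.07 per kilobase, percentile 97.9 of 21770 transcripts), Mcl1 held 8 (2.29 per kilobase, percentile 93.2), 6 of them after the stop codon, and Hrk held 7 (1.29 per kilobase, percentile 66.7), all after the stop codon. Pmaip1 had the lowest density at 0.73 per kilobase. At least 1 copy stood in each of the 10 members and in 88.8% of all these transcripts, whose median was 1.01 per kilobase. These are sequence matches only, and the files do not locate m6A within a transcript.

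Other genes of the apoptosis pathway were taken from 6 lists, and 0 of their genes passed an adjusted p of 0.05 in any of the 4 KA against PBS comparisons in edgeR. Those with an unadjusted p under 0.05 are named after their values were seen. Among 14 other BCL-2 family genes, 10 were tested in m6A libraries at 24 hours. Of these, 2 stood above and 1 below at an unadjusted p under 0.05 in edgeR (5.31% of all genes). Bcl2a1b and Bcl2a1d, near-identical guardian copies of blood and microglial cells whose reads counting could split, lay 2.69 ± 0.65 and 2.83 ± 0.87 above PBS in log2 (edgeR's adjusted p 0.352 and 0.569), and Bok, an effector relative, had -0.86 ± 0.33. Bcl2a1b was at 2.37 ± 0.47 at 2 weeks in m6A libraries (adjusted p = 0.430). In input 0 of 11 tested stood under the unadjusted threshold at 24 hours (9.23% of all genes). At 2 weeks 1 of 11 did in input (8.16%), Bok, which was higher in KA mice there.

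Of 15 tested genes of the p53 pathway, 2 stood above and 0 below at an unadjusted p under 0.05 in m6A libraries at 24 hours (5.31% of all genes), namely Cdkn1a, the cell cycle inhibitor p21, at 2.06 ± 0.49 (adjusted p = 0.341) and Gadd45a, a stress gene, at 1.12 ± 0.39. At 2 weeks 0 did in m6A libraries (5.01%). In input 2 stood above and 0 below at 24 hours, Gadd45a and Phlda3 (9.23%), and at 2 weeks 1 stood above, Cdkn1a at 1.85 ± 0.60, and 2 below, Ccng1 at -0.51 ± 0.21 and Ppm1d at -0.48 ± 0.22 (8.16%). Bbc3, Bax and Pmaip1, the p53 targets among the members, were at -0.68, 0.61 and 0.32 in m6A libraries at 24 hours. In input at 2 weeks these 3 members were at 1.53, 0.05 and -0.33. Atf3, a stress transcription factor among 12 tested regulators of BH3-only genes, was at 3.16 ± 0.78 in m6A libraries and 3.68 ± 1.22 in input at 24 hours (adjusted p = 0.376 and 0.396). Of these regulators 2 stood above and 0 below at an unadjusted p under 0.05 in each assay at 24 hours, 0 in m6A libraries at 2 weeks, and 1 above and 2 below in input at 2 weeks. The median of the 9 death receptor genes was 0.67 in m6A libraries and 0.84 in input at 24 hours, beside 0.08 and 0.27 over all genes tested, and 7 and 9 of the 9 lay above 0. At 2 weeks the medians were 0.31 and 0.18, and 6 of the 9 lay above 0 in each assay. Tnfrsf1a, the TNF receptor, had 1.91 ± 0.55 in m6A libraries and 2.70 ± 1.06 in input at 24 hours, and was not under an unadjusted p of 0.05 at 2 weeks (edgeR).

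The 16 apoptosome and caspase genes had 0 genes at an unadjusted p under 0.05 at 24 hours in either assay, with medians of 0.13 and 0.30. At 2 weeks Casp8 (0.62 ± 0.28, m6A libraries) and Xiap (-0.34 ± 0.15, input) did. Among 10 mitochondrial partners 1 lay above 0 in input at 24 hours, with a median of -0.41 beside 0.27 over all genes tested, against 4 in input at 2 weeks and 5 and 7 in m6A libraries at 24 hours and 2 weeks. In input at 24 hours Vdac2, Vdac3, Opa1 and Dnm1l, channel and fission or fusion genes, ran from -0.60 to -0.46, while Hk2, hexokinase, stood at 1.34 ± 0.58.

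Markers of other cell types are given beside these values, and none passed an adjusted p of 0.05 between KA and PBS mice in edgeR. Summed over their lists, the 5 astrocyte markers held 634 to 3313 CPM in KA and 1225 to 1677 CPM in PBS m6A libraries at 24 hours, which overlapped. In input at 2 weeks they held 1324 to 3574 CPM in KA and 810 to 1246 CPM in PBS libraries, which did not. Gfap, the reactive astrocyte gene, held 494 to 2103 CPM in KA and 149 to 209 CPM in PBS libraries there. Its log2 fold change was 2.48 ± 0.59 (adjusted p = 0.544, edgeR). It alone of the 5 stood under an unadjusted p of 0.05 in that comparison (8.16% of all genes). In m6A libraries at 24 hours the median of the 5 was -0.36, with 2 above 0. The 7 leukocyte markers held 24.2 to 40.9 CPM in KA and 20.5 to 26.9 CPM in PBS input libraries at 2 weeks, with Cd3e at 0 in the PBS libraries. The 6 microglial markers held 100.2 to 234 and 80.1 to 116 CPM in the same groups. The ranges of KA and PBS mice overlapped for the leukocyte and the microglial markers.

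The 8 hippocampal neuron markers held 2122 to 3503 CPM in KA and 2002 to 2957 CPM in PBS input libraries at 2 weeks. That is the comparison in which Hrk separated in unscaled CPM. In m6A libraries at 24 hours the markers held 1293 to 3685 CPM in KA and 3382 to 4806 CPM in PBS mice, with the lowest value in a KA library. The part of these markers in the values of the members was not tested. Their median log2 fold change was 0.38 in input at 2 weeks and -0.45 in m6A libraries at 24 hours. The other lists, with 5 inhibitory neuron, 4 oligodendrocyte, 4 endothelial, 3 choroid plexus and 2 thalamus markers, had 0 genes past an adjusted p of 0.05 in the 4 comparisons, and their medians ran from -0.46 to 1.23.

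Across the 19 m6A libraries, the genes whose log2 CPM followed Mcl1 most closely were Bach1 (Pearson r = 0.94), Zfp521 (r = 0.90) and Ccdc86 (r = 0.89), given as a description over libraries that share library sets and differ in depth.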

How the data were processed

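Hippocampal libraries of 19 mice were analysed. The authors deposited unnormalized counts, 1 value per gene symbol and sequencing lane, with 4 lanes per library. Lanes were added up within each library (140 columns, 35 libraries). A further 8 columns belong to inputs that the labels do not list and stayed unused. The submitters' processing notes give mm10 as the genome build. Which aligner and counter made the counts is not given in the sources used here, and reads of overlapping genes or near-identical copies may have been split or lost. Column names state the assay for 8 libraries. For the other 27 it was inferred from the column prefix (3, 4 or 5 for m6A), as seen in the mice whose input is named. Library preparation used a stranded total RNA kit (SMARTer), and each library comes from 1 mouse.

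CPM is a library's counts scaled to a total of 1000000. Input libraries under 100000 counts were left out. Total counts were 1652933 to 34564536 in m6A libraries and 3057578 to 12694434 in the 13 input libraries kept. Groups were compared by the quasi-likelihood test of edgeR 4.0.16 (R 4.3.3) after filterByExpr by group and TMM scaling, fitted robustly over all genes within each time in m6A and over the 13 input libraries together, with Benjamini-Hochberg adjustment at a threshold of 0.05. SE was obtained by dividing the absolute log2 fold change by the root of F. The alternatives were DESeq2 1.42.0, voom with quality weights (limma 3.58.1), library size scaling, other filters (none, or mean counts of 10 and more), no robust fit, other sets of libraries in the fit, library set as a block, mouse as a block, and omission of single libraries. Adjusted degrees of freedom, fits within 1 library set and the removal of mouse 8 were added after seeing the data. The fits were tested on simulated data. No pair of libraries of the same group was alike within sampling noise, and pairs across groups were not compared.

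Mouse numbers pair m6A and input libraries because the labels give both to the same animal. In the 12 mice of groups that allow the check, deviations from the group means correlated between the libraries of a mouse with r from -0.02 to 0.89, above 0.1 in 10. The mouse's own m6A library was the best match in its group for 8 of the 12. PBS mice 2 and 4 at 2 weeks, which enter the PBS fits with the mouse as a block, had r of -0.019 and -0.005. Transcript lengths and sequences came from GENCODE vM39 (GRCm39) and gene coordinates from RefSeq (GRCm38.p6). Python 3.11.15, pandas 2.3.3 and matplotlib 3.10.9 made tables and plots. The rule for named genes took all 10 members, up to 3 genes per pathway list past the threshold in each comparison and the 3 genes most like the member with the smallest p in m6A libraries at 24 hours (log2 of TMM-scaled CPM plus 0.5). Members, lists and markers were chosen with earlier results of these data known. No pathway gene passed the threshold, so those the report names, at an unadjusted p under 0.05, lie outside the rule and were chosen after their values were seen.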

Additional observations from a re-analysis of the deposited data

Results flagged for a closer look

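Values apart from the rest of a group were looked for in the 40 groups of 4 or more libraries (10 members in 4 groups), by the gap of the highest or lowest library to its neighbour over the range of the group (Dixon's 95% limit). Chance flags about 1 in 20 groups, and 4 were found. Bak1 stood at 12.5 CPM in the m6A library of PBS mouse 4 at 2 weeks, against 3.10 to 4.34 CPM in the other 4. Mcl1 stood at 36.3 CPM in the m6A library of KA mouse 6 at 2 weeks, the library with 17.5% mitochondrial counts, against 69.7 to 88.8 CPM in the others. Pmaip1 stood at 5.56 CPM in the m6A library of KA mouse 67 at 24 hours, from 11 counts, against 2.23 to 3.02 CPM. Bcl2 stood at 38.1 CPM in the input library of KA mouse 7 at 2 weeks, against 23.4 to 26.0 CPM.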

How the results depend on the processing

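The count of members past an adjusted p of 0.05 was 0 in each of the 9 comparisons and stayed 0 in 215 of 219 alternative fits, those leaving out 1 library included. In DESeq2 no member had an adjusted p for the input change between times, so none could be called there. The count was 1 (Mcl1, 1.02) in m6A libraries at 24 hours within set 4. With voom and quality weights it was 1 in input at 24 hours (Mcl1, 0.92), 1 in m6A over input among PBS mice (Mcl1, 0.70) and 2 among KA mice (Hrk, -0.63, and Mcl1, 0.57). Of 2186 member values under alternatives, 130 had the opposite sign to the reported value, and 24 of these had also moved by more than its SE, none of them called. For KA against PBS at 2 weeks in m6A libraries these were Bcl2l1 with library set as a block (0.03) and within set 5 (0.047), Pmaip1 in the same fits (-0.093 and -0.073) and Bak1 with voom (0.011). In input at 24 hours they were Hrk with library size scaling (-0.21) and Bcl2 with voom (-0.18) and within the set without a prefix (-0.22), and in input at 2 weeks Bak1 (-0.34 and -0.53) and Bcl2l11 (-0.40 and -0.33) with library set as a block and within the set without a prefix. With voom they were Bcl2l11 in the m6A change between times (-0.084), Bak1 (-0.22) and Bcl2l11 (-0.15) in m6A over input among PBS mice and Bax among KA mice (-0.25). When single libraries were left out, Bak1 ran from -0.64 to 0.079 in m6A libraries at 2 weeks (positive without PBS mouse 4), Bcl2 from -0.22 (without KA mouse 8) to 0.38 in input at 24 hours, and Pmaip1 from -0.67 to 0.14 (without PBS mouse 2) in input at 2 weeks. In m6A over input among PBS mice, Bak1 ran from -0.17 (without PBS mouse 4, m6A) to 0.62 and Pmaip1 from -0.77 to 0.010 (without PBS mouse 2, input). With the mouse as a replicate block, m6A over input among PBS mice gave Pmaip1 0.087 and Bid -0.42, the KA effect on it gave Hrk 0.31, and no member's call changed. The causes were not tested. Across all genes, the median log2 fold change of KA over PBS in input at 24 hours was 0.27 after TMM scaling. Depth limits Bbc3 most, with 1 to 163 counts per library.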
